A study of Mus musculus with 24 samples.

Results

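The 77 ribosomal protein genes described here were chosen by name. They are the autosomal protein-coding RefSeq genes of mouse build mm10 (GRCm38.p6) whose symbol is Rpl or Rps with a number and an optional letter, together with Rplp0, Rplp1, Rplp2 and Rpsa. They make up 77 of 20665 autosomal protein-coding genes, with 30 genes of the small subunit, 44 of the large subunit and 3 of the P stalk. The rule used no measured value. The series mapped histone H3 lysine 4 monomethylation (H3K4me1) and the ETS factor PU.1 by ChIP-seq, and open chromatin by ATAC-seq, in lineage-depleted (Lin-) bone marrow progenitors of C57BL/6 mice. H3K4me1 was mapped in 2 libraries of Utx wild-type (WT) cells and 2 of Utx knockout (KO) cells, and PU.1 in 3 of each genotype. ATAC set B held 2 libraries each of Utx WT and Utx KO cells, both carrying Cas9, that received either an empty vector or a guide RNA (gRNA) targeting Smarca4. ATAC set A held 2 libraries of Cas9-carrying Utx WT cells with the empty vector and 2 with a gRNA against Chd4. The labels name 1 guide per target, and for set A they give 7 days of semi-solid and 5 days of liquid culture, with collection 6 days after transduction. The age of the mice and the efficiency of editing are not given in the labels. Nothing in the labels says whether same-group libraries came from separate animals, so the spread between them may be technical.

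Ribosomal proteins are the protein part of the ribosome. The small subunit decodes the mRNA, the large subunit joins amino acids, and the P stalk of the large subunit recruits translation factors. The genes are short, strongly transcribed in dividing cells and often carry small nucleolar RNA (snoRNA) genes in their introns. Their transcripts typically begin with a C inside a run of pyrimidines, the terminal oligopyrimidine (TOP) motif, through which translation follows growth signals. Reduced dosage of some of them causes Diamond-Blackfan anaemia, a failure of red cell production. UTX (Kdm6a) is a subunit of the enhancer-methylating COMPASS complexes, SMARCA4 (BRG1) is the ATPase of the BAF remodelling complex and CHD4 that of NuRD. H3K4me1 marks enhancers and the flanks of promoters.

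The gene spans were short, with a median of 3183 bp and a range from 592 to 11774 bp (Rps15a), against a median of 17491 bp over all autosomal coding genes. The genes lay on 18 chromosomes, 14 of them on chromosome 7, and 27 of them contained 56 snoRNA genes. The X-linked Rpl10, Rpl36a, Rpl39 and Rps4x fell outside the rule. RefSeq's table of promoters had an entry for 57 of the 77 genes, with 69 transcription starts, and statements about starts below cover these genes only.

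The starts are shown here because ATAC peaks and PU.1 islands lay over nearly all of them. Each sequence runs from 80 bases before to 20 bases after the start, read 5' to 3' on the gene's strand from RefSeq GRCm38.p6. In the first 4, chosen from the longest pyrimidine runs, capitals mark the longest run of C and T inside a window of 10 bases on each side of the start. Rpl27a, which also had a run of 15, is not among the 4 shown. Rpl35 (chr2:39005111-39005211, minus strand) had a run of 18, Rpl7a (chr2:26910727-26910827, plus strand) of 17, Rpl15 (chr14:18270966-18271066, minus strand) of 15 and Rpl14 (chr9:120571437-120571537, plus strand) of 14.
Rpl35: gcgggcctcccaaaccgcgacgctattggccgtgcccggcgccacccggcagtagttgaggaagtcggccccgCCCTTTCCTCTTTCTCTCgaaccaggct
Rpl7a: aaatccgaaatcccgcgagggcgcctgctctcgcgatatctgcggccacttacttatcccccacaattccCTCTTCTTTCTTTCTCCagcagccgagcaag
Rpl15: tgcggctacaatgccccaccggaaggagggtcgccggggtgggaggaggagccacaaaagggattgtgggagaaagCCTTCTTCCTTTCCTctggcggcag
Rpl14: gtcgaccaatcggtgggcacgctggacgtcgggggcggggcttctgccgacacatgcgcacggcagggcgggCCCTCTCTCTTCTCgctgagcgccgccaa

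Runs of 8 or more pyrimidines in that window were found at 22 of the 69 starts (31.9%), against 8.06% of 20085 starts of all genes. The base at the start was C at 30.4% of the starts and at 13.9% of all. CTTT within 10 bases of the start, on the gene strand, stood at 24.6% against 7.48%, and a C followed by 4 pyrimidines at 52.2% against 27.2%. Each of these TOP-like features was thus more frequent among the ribosomal protein starts, although most starts had no run of that length.

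In the next 4 sequences capitals mark CCGGAAG, the core letters bound by many ETS factors, or GAGGAAG, the core letters preferred by PU.1, on either strand. They are shown for Rpl41 (chr10:128549148-128549248, minus strand), Rpl37 (chr15:5116533-5116633, plus strand) and Rps25 (chr9:44407634-44407734, plus strand), whose starts were open and PU.1-covered in every library, and for Rpl10l (chr12:66284381-66284481, minus strand), which had no peak in any library.
Rpl41: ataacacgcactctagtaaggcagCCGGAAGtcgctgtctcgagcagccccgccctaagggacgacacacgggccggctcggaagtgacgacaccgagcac
Rpl37: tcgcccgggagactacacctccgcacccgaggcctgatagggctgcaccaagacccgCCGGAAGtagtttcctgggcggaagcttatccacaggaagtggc
Rps25: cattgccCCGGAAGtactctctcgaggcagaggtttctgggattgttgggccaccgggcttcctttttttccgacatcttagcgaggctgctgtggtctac
Rpl10l: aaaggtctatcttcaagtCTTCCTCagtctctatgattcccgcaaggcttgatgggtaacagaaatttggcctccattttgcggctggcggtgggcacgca

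Over the whole promoter entry, from 250 bases before to 50 after the start, CCGGAAG on either strand was present at 25 of 69 starts (36.2%), against 11.9% of all starts. Among starts of genes open in all 6 empty-vector ATAC libraries the shares were 38.1% and 20.7%. GAGGAAG on either strand was present at 20.3% against 13.2%, and AAGATGG, the core of the YY1 site around a start codon, at 15.9% against 6.29%. The Sp1-type letters GGGCGG were present at 56.5% against 47.0% of all starts, but at 60.3% against 66.1% of the open ones. TATAAA was present at 7.25% against 12.7% of all starts, and at 6.35% against 6.39% of the open ones. The median GC content of the entries was 58.3%, against 57.0% for all starts and 61.7% for open ones. CCGGAAG and GAGGAAG share the letters GGAAG, neither contains the other, and a start with both was counted under each. Each match is a description of letters, not of a bound site.

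The peak lists of the 22 libraries held 24833 to 50927 ATAC peaks, 137850 to 171535 PU.1 islands and 43706 to 54654 H3K4me1 islands. They hold no reads, so the depth behind them is unknown. All 9 stem and progenitor markers examined, among them Kit, Cd34 and Runx1, had a peak in every ChIP and empty-vector ATAC library. None of the 5 T-cell markers had an ATAC peak in all 6 empty-vector libraries, although Cd3e and Cd4 had one in 2 of them. PU.1 islands were present in every library at 4 of these 5 genes, and H3K4me1 islands at 2. The PU.1 lists also held islands near genes of other tissues, with 2 of 5 such genes (Alb and Krt5) marked in all 6 libraries, so a PU.1 island within 1 kb did not set blood genes apart. ATAC peaks were also present in every empty-vector library near 3 of 4 B-cell, 2 of 4 erythroid and 2 of 4 stromal and endothelial markers. Each of the 3 mature granulocyte markers had an ATAC peak in some but not all of these libraries. PU.1 and H3K4me1 islands were present at all 3 in every library. In bulk cells, fewer cells with an open site and less opening per cell cannot be told apart.

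Nearly all ribosomal protein genes were marked in all 3 assays. An ATAC peak within 1 kb of the span was present in all 12 libraries for 74 of 77 genes. PU.1 islands were present in all 6 libraries for 72 genes, and H3K4me1 islands in all 4 libraries for 73. Over the ChIP and empty-vector ATAC libraries, 71 of 77 genes (92.2%) had all 3 in every library, against 54.2% of all autosomal coding genes. Within the shortest of 5 equal classes of span the shares were 92.9% (52 of 56) and 24.4% (of 4133 genes). All 30 small-subunit genes were open in all empty-vector libraries, as were 41 of 44 large-subunit genes and all 3 P-stalk genes. All 18 Diamond-Blackfan anaemia genes examined had all 3 marks in every library.

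**Figure D1:**
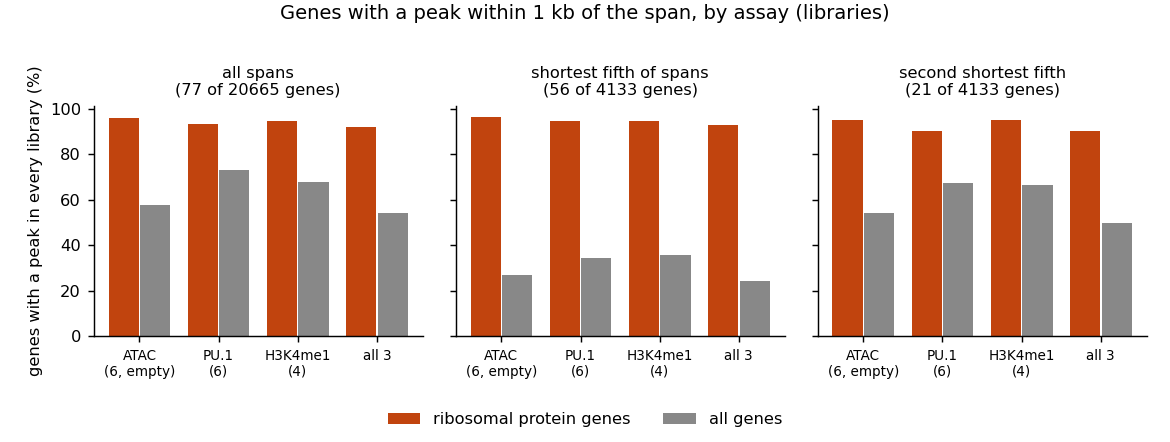
Share of genes (%) with a peak within 1 kb of the span in every library, for ATAC (6 empty-vector libraries), PU.1 (6), H3K4me1 (4) and all 3, over all span lengths and in the shortest and next shortest of 5 equal span classes. Orange bars (ribosomal protein genes) stay above 90% in each panel, whereas grey bars (all genes) fall to 24.4% for all 3 assays in the shortest class.

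The exceptions were paralogues and a small set of single genes. Rpl10l and Rpl39l, the testis-expressed copies of Rpl10 and Rpl39, had no peak of any kind in any library. Rpl32l had no ATAC or H3K4me1 peak and a PU.1 island of 199 bp in 1 of 6 libraries. The muscle-expressed Rpl3l had ATAC peaks within 1 kb of its span in all 12 libraries, but its own start was covered in none of them. Rps27l, a p53-induced paralogue of Rps27, was open in all 12 libraries, with 842 to 1117 bp covered. Its PU.1 islands covered 0, 399 and 999 bp in the Utx WT libraries and 2198, 2599 and 399 bp in the Utx KO libraries, so the groups overlapped. Rpl23a lacked a PU.1 island in 1 library only (999, 1584 and 1399 bp in Utx WT, 1864, 0 and 3064 bp in Utx KO). Rpl41, which encodes the smallest ribosomal protein, lacked H3K4me1 in 1 library (0 and 90 bp in Utx WT, 290 and 1690 bp in Utx KO).

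Other genes of the translation apparatus were marked about as widely. All 3 assays marked 74 of 78 mitochondrial ribosomal protein genes, 31 of 32 translation factor genes and 38 of 41 ribosome assembly genes in every ChIP and empty-vector ATAC library. These counts lay close to that of the ribosomal protein genes, and the lists were not tested against each other.

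At the starts, openness and PU.1 cover went together, while H3K4me1 was mostly missing. An ATAC peak covered a listed start in all 12 libraries for 52 of 57 genes (91.2%), against 42.7% of 16457 genes with an entry. Rpl10l, Rpl32l, Rpl39l and Rpl3l had none, and Rpl4 was covered in 10 libraries. PU.1 covered a start in all 6 libraries for 52 genes (91.2%), against 47.8% of all genes. Among genes with a start open in all empty-vector libraries the shares were 51 of 52 and 88.6%, and Rps27l, with 3 of 6 libraries, was the gene outside.

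H3K4me1 covered a listed start in all 4 libraries for 2 of 57 genes, Rpl12 and Rpl14, against 30.1% of all genes. Restricted to open starts, the shares were 3.85% (2 of 52) and 33.6% (of 7806 genes). Islands covered 7 and 22 of the 69 listed starts in the Utx WT libraries and 13 and 35 in the Utx KO libraries. In both genotypes the higher number came from replicate 2, whose islands were wider over the whole list (median 3599 and 3799 bp, against 2799 and 2999 bp for replicate 1). Without Utx WT replicate 1, the count of genes covered in every library was 6 instead of 2. Counted over the 61 open starts, H3K4me1 covered 8.20% and 34.4% in Utx WT and 21.3% and 55.7% in Utx KO. Over 8964 open starts of all genes the shares were 37.4%, 61.5%, 50.1% and 68.2% in the same libraries, higher in each of the 4.

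The stretch with little H3K4me1 was narrow. Averaged over the 4 libraries, islands covered 75.0% of the 61 open starts 1 kb upstream, 29.9% at the start and 94.7% 1 kb downstream. For all open starts the values were 75.6%, 54.3% and 89.3%. Downstream cover reached further from the ribosomal protein starts, with 94.7% against 84.7% at 2 kb and 89.8% against 68.7% at 3 kb. With a median span of 3183 bp, these points lie past the end of some of the genes. Where the start itself was free, the nearest island lay at a median of 424.5 to 703 bp upstream and 449 to 724.5 bp downstream, depending on the library. A downstream island lay within 2 kb of 96.4% to 100% of such starts, an upstream island of 64.3% to 88.9%, and islands on both sides of 62.5% to 88.9%. ATAC peaks fell away to 2.19% at 1 kb upstream and 7.38% at 1 kb downstream, against 11.2% and 16.1% for all open starts. PU.1 cover was 98.4% at the start, 24.9% at 1 kb upstream and 41.5% at 1 kb downstream, against 94.9%, 37.7% and 48.3%. ATAC cover reached further downstream than upstream, with 75.3% of the ribosomal protein starts covered at 400 bp downstream and 50.1% at 400 bp upstream, against 66.7% and 54.9% of all open starts. The sets share starts, since the ribosomal protein genes are among all genes, and the difference was not tested.

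**Figure D2:**
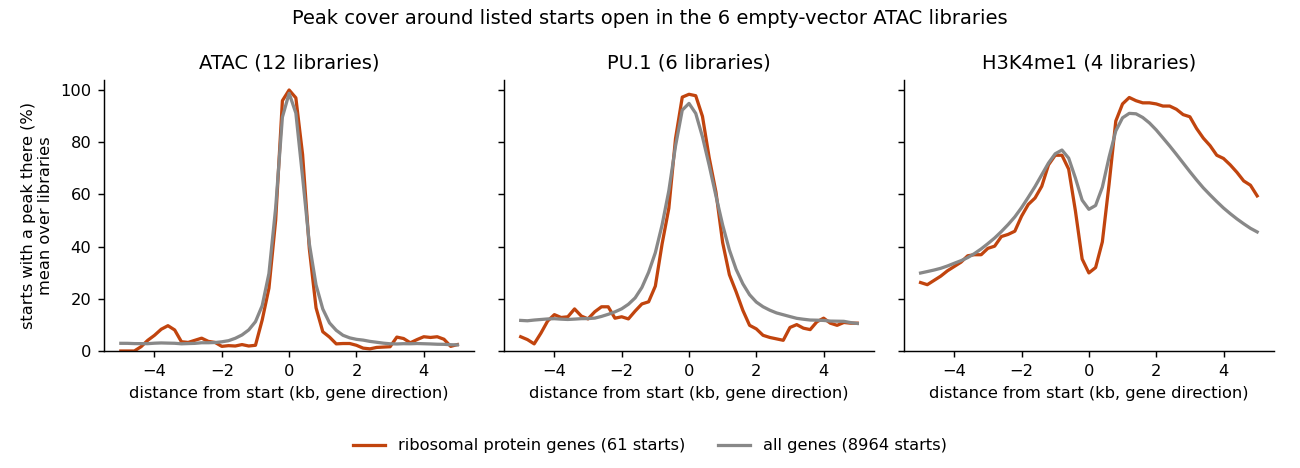
Share of open starts (%, mean over libraries) that have a peak at each distance from the start (kb, positive in the direction of the gene), for 61 starts of ribosomal protein genes (orange) and 8964 starts of all genes (grey). ATAC and PU.1 peak at 0, while H3K4me1 falls to 29.9% at the start in the orange line and to 54.3% in the grey, and stays higher downstream in the orange line.

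ATAC peaks over the starts were about as wide as those of other genes. Their median width was 746 to 1106 bp per library, against 702 to 1137 bp for starts of all genes. PU.1 islands at the starts ranked at a median percentile of 85.3 to 92.2 of their own lists by the authors' score, against 81.7 to 88.0 at starts of all genes. The 13 PU.1-covered starts with GAGGAAG ranked at 93.7 to 95.3, and the 50 without it at 82.5 to 89.7, so that the ranges over libraries did not meet. Some of the 13 are starts of the same gene under a shared island, such as the 3 of Rpl35a and those of Rps19 and Rps21. The rank of such an island is counted repeatedly, and the difference was not tested. For CCGGAAG the ranges were 87.8 to 92.6 with it (24 starts) and 84.4 to 91.4 without it (39 starts), which overlap.

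By rank of the highest peak within 1 kb, the leading genes differed between assays. In ATAC, Rpl7, Rpl41 and Rpl37 had median percentiles by width of 99.6, 98.9 and 95.6 over the 12 libraries. In PU.1, Rpl18, Rpl41 and Rpl3l led with 99.9, 99.4 and 99.3. In H3K4me1, the P-stalk gene Rplp2 led with 99.6, from islands of 22399 to 40599 bp, followed by Rps18 with 97.7 and Rpl18 with 97.7. Rpl41 was among the leading 3 in both ATAC and PU.1, while its H3K4me1 islands had a median percentile of 68.3 over the 3 libraries that held one. Islands this wide extend over neighbouring genes. The ATAC and PU.1 peaks of Rpl3l lay off its listed starts, while H3K4me1 covered a start in 2 of 4 libraries.

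Peaks within 1 kb of the spans were merged over the libraries of each assay into regions, where any overlap counted. There were 121 ATAC regions, 97 H3K4me1 regions and 111 PU.1 regions. One region in each assay was shared by a pair of adjacent genes, and 1 further H3K4me1 region by Rpl3l and Rps2. Of the 121 ATAC regions, 81 held a peak in all 12 libraries. Among the 59 that contained a listed start, of any gene, 58 did so, and among the other 62, 23 did. Promoters of the 20 genes without an entry can be among these 62. A region without a listed start may thus still be a promoter, here and below.

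In every library these regions were held more often than gene-near regions in general. H3K4me1 regions were held 87 and 96 times of 97 in Utx WT and 94 and 94 times in Utx KO. PU.1 regions were held 101, 97 and 102 times of 111 in Utx WT and 104, 98 and 107 times in Utx KO. In ATAC set B, 103 and 103 of 121 regions were held in Utx WT with the empty vector, 97 and 94 with the Smarca4 gRNA, 93 and 95 in Utx KO with the empty vector and 91 and 85 in Utx KO with the Smarca4 gRNA. In set A, 96 and 93 were held with the empty vector and 87 and 85 with the Chd4 gRNA. The ATAC groups did not overlap in any of these comparisons. The same was true of the whole lists, which were shorter in each perturbed group. Set B had 50845 and 50927 peaks in Utx WT with the empty vector, 42015 and 46191 with the Smarca4 gRNA, 40477 and 41024 in Utx KO, and 35975 and 29930 in Utx KO with the Smarca4 gRNA. Set A had 48687 and 41480 peaks with the empty vector and 34429 and 24833 with the Chd4 gRNA. The part of list length in the losses below was not tested.

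**Figure D3:**
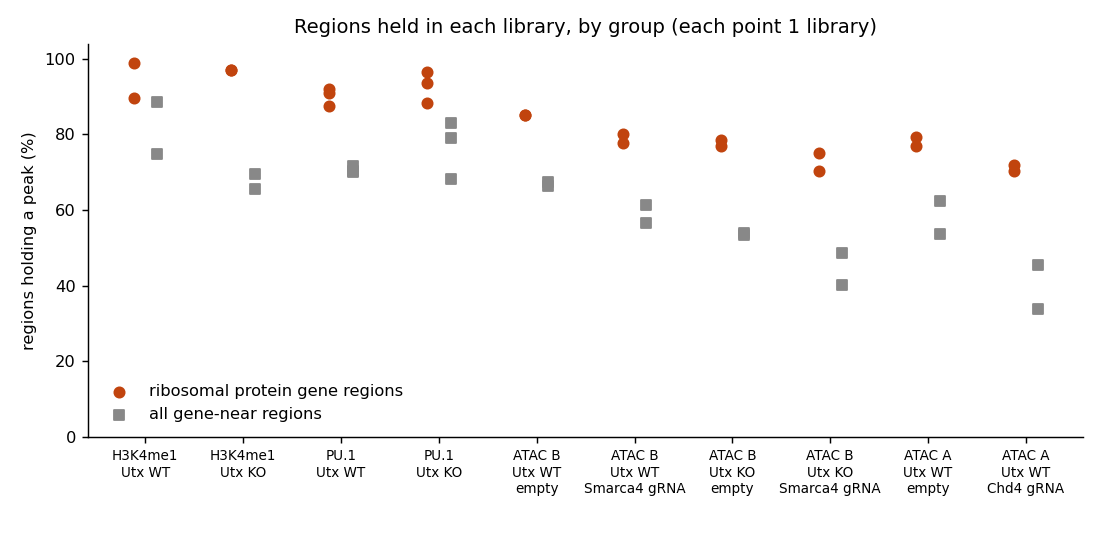
Share of regions (%) that hold a peak in each library, by group, for regions of ribosomal protein genes (orange circles) and all gene-near autosomal regions (grey squares), each point being 1 library. The ATAC values fall from 85.1% in Utx WT with the empty vector to 70.2% to 75.2% in Utx KO with the Smarca4 gRNA at ribosomal protein genes, while the grey squares lie lower in each group.

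The question of the ChIP comparison was where loss of Utx changes enhancer marks and PU.1 binding. A region counted as lost where all reference libraries held a peak in it and the perturbed libraries held none, and as gained in the reverse case. No H3K4me1 region of the 97 was lost, against 10.6% of all 38462 gene-near regions, and none was gained, against 1.73%. These counts moved with the settings: 6 regions were gained without Utx WT replicate 2 and 4 with 50% of a region covered, and 2 were lost with the upper 50% of each list. By the rule, leaving out a library can only keep or raise a count. Among regions held in both Utx WT libraries, 0 of 86 were lost here and 15.2% over all genes. Among those that held no listed start, the values were 0 of 32 and 21.8%. The H3K4me1 regions of ribosomal protein genes were wide, with a median of 9199 bp after merging, so presence does not report narrower changes within them.

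For PU.1, 0 of 111 regions were lost (1.17% of all 106197 regions) and 3 were gained (2.84%), a share near that of all regions. Of the gained regions, 1 lay inside Rpl22 and 1 inside Rps15a. Rpl22 encodes a large-subunit protein that also represses its paralogue Rpl22l1. The Rpl22 region (chr4:152332401-152333399) had 0 bp in each Utx WT library and 399, 399 and 999 bp in the Utx KO libraries. H3K4me1 covered 199 and 999 bp of it in Utx WT and 0 bp in both Utx KO libraries. The Rps15a region (chr7:118111001-118111599) had 0 bp in each Utx WT library and 199, 599 and 599 bp in Utx KO. With only the upper 50% of each list by score, 0 regions were gained. The Utx KO lists with replicate numbers 1 and 3 were also the longest PU.1 lists (171535 and 161605 islands), and their part in the gains was not tested.

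The ATAC comparison of Utx KO with Utx WT, both with the empty vector, asked which sites depend on Utx for accessibility. Of 121 regions, 8 were lost (8.55% of 49601 gene-near regions) and 1 was gained (1.14%). Counted over all regions, the share of losses was close to that of genes in general. Among regions held in both Utx WT empty-vector libraries, 8 of 98 (8.16%) were lost here and 14.3% over all genes. Among those without a listed start, chromosome 18 left out, the values were 8 of 37 (21.6%) and 20.1%. None of the 59 regions with a listed start was lost (1.58% of all such regions), and all 8 losses were among the 62 without one. Of these 62, the 2 on chromosome 18, where no start was listed, were left out of the comparison with other genes, which gave 8 of 60 against 10.3% of all regions without a start. They included regions at Rpl8, Rpl12 and Rpl38 and 3 at Rps15a.

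Rps15a, a small-subunit gene with the longest span of the set, lost the most. Its element inside the gene at chr7:118110950-118111897, 4250 bp from the start, had 683 and 634 bp covered in Utx WT with the empty vector and 938 and 0 bp with the Smarca4 gRNA, and 0 bp in all 4 Utx KO libraries. The element at chr7:118113773-118114191, 1956 bp from the start, had 223 and 290 bp, then 327 and 0 bp, and again 0 bp in all 4 Utx KO libraries. The widest, at chr7:118102252-118104034 and 340 bp beyond the span, had 1026 and 1170 bp with the empty vector and 910 and 1150 bp with the Smarca4 gRNA in Utx WT, and 0 bp in the Utx KO libraries. In set A it had 236 and 0 bp with the empty vector and 0 bp with the Chd4 gRNA. So these elements were seen mainly in set B Utx WT cells, and the Utx WT libraries with the Smarca4 gRNA differed from each other at 2 of the 3. The widest element held H3K4me1 in both Utx WT libraries (1034 bp each) and in neither Utx KO library, although the merged H3K4me1 region it belongs to was not called.

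At Rpl12, whose protein forms the base of the stalk, the element 918 bp from the start (chr2:32962630-32963295) had 630 and 626 bp in Utx WT with the empty vector and 0 bp in both Utx KO libraries. With the Smarca4 gRNA it had 442 and 347 bp in Utx WT and 368 and 0 bp in Utx KO. At Rpl38, whose protein affects translation of Hox mRNAs, the element at chr11:114672177-114672713 had 443 and 370 bp in Utx WT with the empty vector and 0 bp in the other 10 libraries. The element at Rpl8 (chr15:76905726-76906028) had the same pattern, with 301 and 273 bp in the same 2 libraries and 0 bp elsewhere. H3K4me1 covered the Rpl12, Rpl38 and Rpl8 elements in all 4 libraries. The gained region, inside Rpl21 (chr5:146835277-146835532), had 200 and 232 bp in Utx KO with the empty vector and 0 bp in the other 10 libraries.

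**Figure D4:**
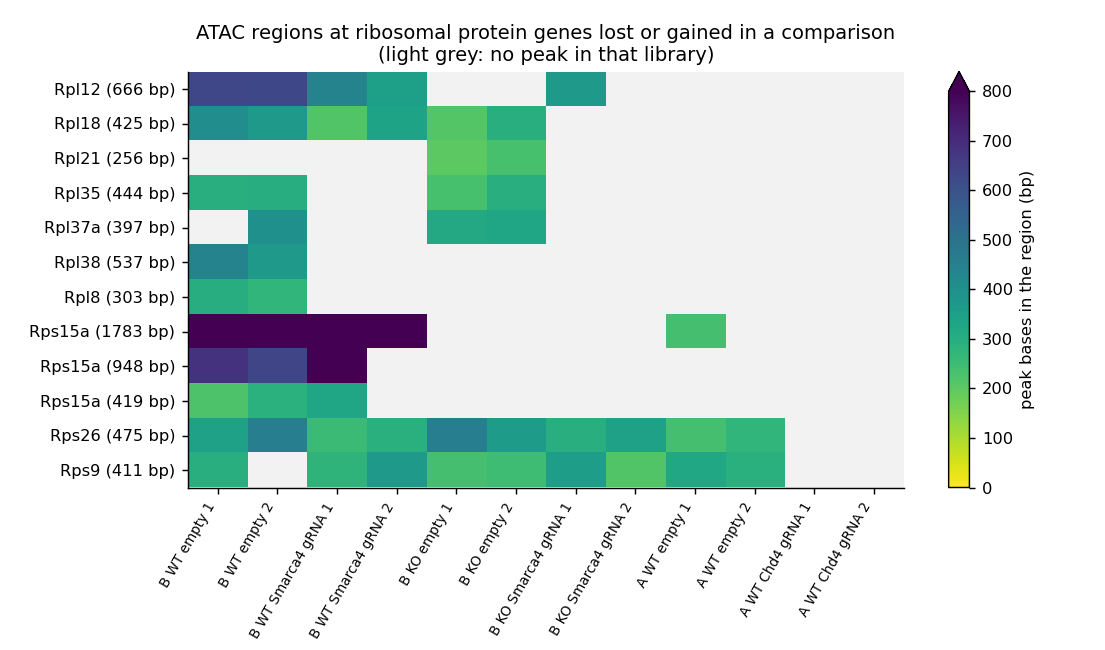
Peak bases (bp, colour) in 12 of the ATAC regions at ribosomal protein genes that were lost or gained in a comparison, by library, with light grey for no peak. The regions at Rps26 and Rps9 lack a peak in both Chd4 gRNA libraries, those at Rpl38 and Rpl8 have one only in Utx WT with the empty vector, and those at Rps15a are grey in all 4 Utx KO libraries.

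The Smarca4 gRNA was compared with the empty vector in each genotype to ask which sites need Brg1. In Utx WT, 4 of 121 regions were lost (4.28% of all) and 0 gained (0.663%). The 4 included regions at Rpl38, Rpl8 and Rpl35. In Utx KO, 4 were lost (4.33%) and 0 gained (0.143%), at Rpl37a, Rpl35, Rpl21 and Rpl18. None of the 59 regions with a listed start was lost in either (1.06% and 0.711% of all such regions). Among all gene-near regions without a start on the chromosomes with listed starts, 5.11% and 5.22% were lost. Among regions held in both empty-vector libraries, 4 of 98 were lost in Utx WT (7.16% over all genes) and 4 of 91 in Utx KO (8.80%). Among those without a listed start, the values were 4 of 37 (9.94% over all genes) and 4 of 30 (13.4%). Leaving out 1 library can by the rule only keep or raise a count. In Utx WT it gave 7 without empty-vector replicate 1 and 8 without empty-vector replicate 2, and in Utx KO 8 without empty-vector replicate 1.

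Rpl35, whose protein lies at the exit of the peptide tunnel, was the gene lost in both genotypes. Its element 2088 bp from the start (chr2:39002600-39003043) had 299 and 302 bp in Utx WT with the empty vector and 234 and 294 bp in Utx KO with the empty vector, and 0 bp in all 4 Smarca4 gRNA libraries and in set A. The region at Rpl37a (chr1:72712888-72713284) had 317 and 330 bp in Utx KO with the empty vector, and was also present in 1 of 2 Utx WT libraries with the empty vector (0 and 397 bp). It had 0 bp with the Smarca4 gRNA in both genotypes. The region 740 bp from Rpl18 (chr7:45721575-45721999) had 214 and 297 bp in Utx KO with the empty vector and 0 bp with the gRNA. In Utx WT it had 409 and 371 bp with the empty vector and 216 and 337 bp with the gRNA. Whether the gRNA acted differently in the 2 genotypes at this region was not tested.

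The Chd4 gRNA was compared with its own empty vector in set A. There, 4 of 121 regions were lost (8.07% of all regions) and 0 gained (0.0605%), and none of the 59 with a listed start was lost (2.08% of all such regions, and 9.58% of those without a start). The losses included regions at Rps26 and Rps9. Among regions held in both set A empty-vector libraries, 4 of 90 were lost here and 16.0% over all genes. Among those without a listed start, the values were 4 of 30 and 22.9%. The count of lost regions was 7 without empty-vector replicate 1 and 10 without empty-vector replicate 2, where leaving out a library can only keep or raise it. The regions at Rps26 and Rps9 were open nearly everywhere else. At Rps26, a Diamond-Blackfan anaemia gene, the region 821 bp from the start (chr10:128625211-128625685) had 237 and 273 bp with the empty vector, 0 and 0 bp with the Chd4 gRNA, and 254 to 459 bp in the 8 libraries of set B. At Rps9, which helps set the accuracy of decoding, the region at chr7:3705537-3705947 had 320 and 293 bp with the empty vector, 0 and 0 bp with the Chd4 gRNA and 216 to 368 bp in 7 of the 8 libraries of set B, with 0 bp in Utx WT empty vector replicate 2. The 2 Chd4 gRNA lists had 34429 and 24833 peaks, against 29930 to 50927 in the other ATAC lists, and the part of this in the losses was not tested.

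The comparison of Utx KO with WT and that of the Smarca4 gRNA in Utx WT share their reference libraries, so sites lost in both are not independent. Over the 4 ATAC comparisons, 14 regions of 12 genes were lost at least once, none with a listed start, and 5 more than once. They were narrow, with a median merged width of 438.5 bp (256 to 1783 bp), against 1199 to 1248.5 bp for the regions kept in each comparison.

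The bases covered by peaks within 1 kb of each span give a graded measure. In ATAC set B, with the number of bases as listed, groups did not overlap and were lower in Utx KO for 25 of 74 genes (51% of all 14167 genes tested) and higher for 6 (6.45%). With the Smarca4 gRNA in Utx WT, 15 were lower (29.9%) and 10 higher (9.67%), and in Utx KO 18 were lower (36%) and 10 higher (4.99%). With the Chd4 gRNA, 59 of 74 were lower (75.7% of 12819 genes) and 0 higher (0.367%). For H3K4me1, 11 were higher (11.6% of 15366 genes) and 5 lower (23.8%) in Utx KO. For PU.1, 4 were higher (9.45% of 16415 genes) and 1 lower (9.14%). The shares of ribosomal protein genes that were lower lay below the background in each of these comparisons but that of the Chd4 gRNA, where the share was close to it. The share that was higher lay below the background for PU.1 and the Chd4 gRNA and above it in the other 4 comparisons, most for the Smarca4 gRNA in Utx KO, and these differences were not tested. The background was not matched for span, and ribosomal protein spans were shorter (median 3183 bp, against 17491 bp over all autosomal coding genes). The part of span in these shares was not tested.

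For tests, each library's log2 values were centred on the median over genes covered in every library of the fit, so that a shift shared by all genes was removed. On this scale limma called no ribosomal protein gene at an adjusted p of 0.05 in any of 8 contrasts, each with 74 genes tested. In simulated data, the H3K4me1 fit recovered 39 of 100 planted log2 differences of 2, and the other fits 93 to 98 of 100. Smaller differences were not planted, so the absence of a call does not show the absence of a change. The shares called over all genes, higher and lower, were 0.443% and 1.63% (H3K4me1), 0.755% and 0.493% (PU.1), 0.649% and 3.17% (ATAC, Utx KO with the empty vector), 0.113% and 0.861% for the Smarca4 gRNA in Utx WT, 0.0282% and 0.565% for it in Utx KO, and 0% and 0% for the Chd4 gRNA. For Utx KO against WT under the Smarca4 gRNA they were 0.72% and 4.09%, and for the difference of the Smarca4 gRNA effect between genotypes 0.353% and 0.176%. At an unadjusted p under 0.05 limma counted 4, 4, 11, 8, 7, 1, 16 and 6 ribosomal protein genes in that order. The corresponding shares of all genes were 13.5%, 17.4%, 20.2%, 10.1%, 10.6%, 12.3%, 24.4% and 7.63%. No other test was run on these values.

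The median log2 differences of the 74 genes, with those of all genes tested, were 0.27 and 0.07 (H3K4me1), 0.01 and -0.02 (PU.1), 0.11 and 0.02 (ATAC, Utx KO with the empty vector), 0.05 and 0.00 for the Smarca4 gRNA in Utx WT, 0.10 and 0.01 for it in Utx KO, and 0.13 and -0.01 for the Chd4 gRNA. Without centring, the median of all genes was -0.06 for H3K4me1, -0.16 for ATAC in Utx KO with the empty vector, -0.11 for the Smarca4 gRNA in Utx KO and -0.48 for the Chd4 gRNA. The ribosomal protein medians were then 0.14, -0.07, -0.02 and -0.34 in that order, and -0.01 for the Smarca4 gRNA in Utx WT. The positive ATAC medians are therefore relative to other genes and turn negative without centring. In the H3K4me1 contrast the other lists lay at similar medians, at 0.24 for mitochondrial ribosomal proteins, 0.22 for translation factors and 0.33 for ribosome assembly.

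**Figure D5:**
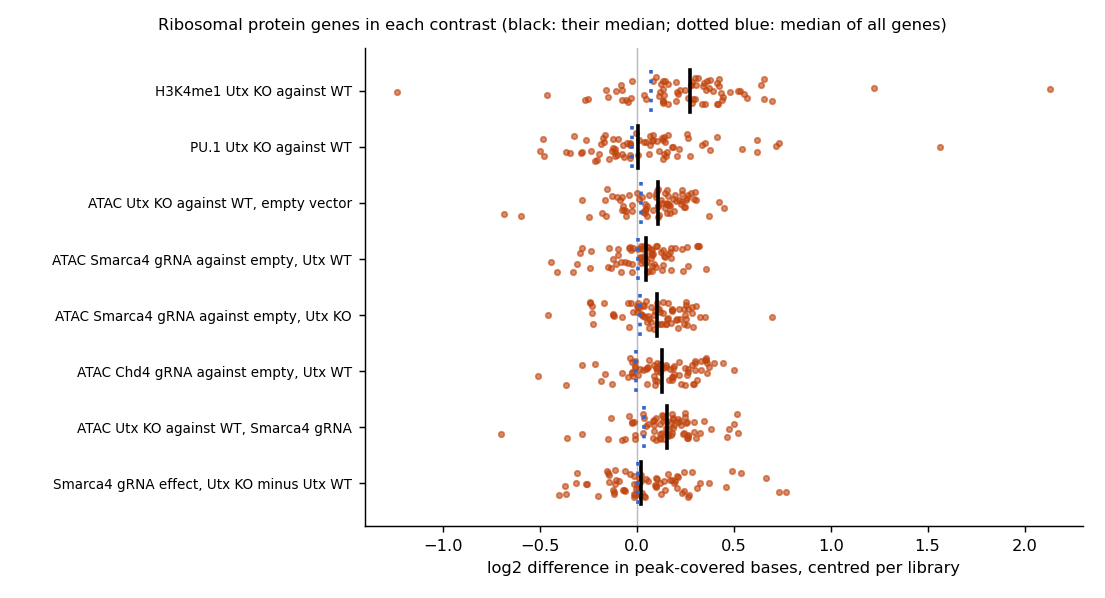
Log2 difference in peak-covered bases (centred per library) of each of the 74 tested ribosomal protein genes (points, spread vertically for view) in 8 contrasts, with their median (black line) and the median of all genes (dotted blue line). Most points lie within 0.5 of 0 in the ATAC contrasts, Rpl41 (2.13) and Rpl3l (-1.24) lie farthest out for H3K4me1, and Rps27l (1.56) for PU.1.

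The genes with the largest differences, among those whose groups did not overlap, are given with their limma values. For H3K4me1, Rpl41 had 0 and 90 bp in Utx WT and 290 and 1690 bp in Utx KO, a log2 difference of 2.13 (SE 0.59, limma adjusted p = 0.253). Rpl15, a Diamond-Blackfan anaemia gene, had 386 and 1585 bp against 1785 and 2185 bp, a log2 difference of 1.22 (limma adjusted p = 0.371). Rpl3l had 8317 and 8717 bp against 3942 and 2543 bp, a log2 difference of -1.24 (limma adjusted p = 0.315). The P-stalk gene Rplp1 had 3228 and 3228 bp against 2427 and 2427 bp, a log2 difference of -0.25 (limma adjusted p = 0.738). None passed the threshold, and for Rpl41 the spread within Utx KO was wider than the gap between the groups.

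For PU.1, Rps7 had 999, 799 and 1199 bp in Utx WT and 2398, 1399 and 1799 bp in Utx KO, a log2 difference of 0.73 (SE 0.20, limma adjusted p = 0.153). Rpl22 had 1199 bp in each Utx WT library and 1598, 1798 and 2798 bp in Utx KO, a difference of 0.62 (limma adjusted p = 0.183). Rpl6 was the gene lower in every Utx KO library, with 1599, 1399 and 1599 bp against 1199 bp in each, a difference of -0.34 (limma adjusted p = 0.230). Island widths in the ChIP lists moved in coarse steps, such as 999, 1199 and 1399 bp. Equal values and small gaps in covered bases therefore have no finer resolution than such a step. Rps7 is a Diamond-Blackfan anaemia gene whose protein also binds Mdm2.

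In ATAC, Rpl12 had 1641 and 1940 bp in Utx WT and 909 and 876 bp in Utx KO with the empty vector, a log2 difference of -0.68 (SE 0.19, limma adjusted p = 0.132). With the Smarca4 gRNA in Utx KO it had 1778 and 1146 bp, a difference of 0.70 from the Utx KO libraries with the empty vector (limma adjusted p = 0.288). These 2 contrasts share the Utx KO empty-vector libraries. Rps15a had 3273 and 3506 bp in Utx WT and 1774 and 2032 bp in Utx KO with the empty vector (-0.60, limma adjusted p = 0.311). Under the Smarca4 gRNA it had 4045 and 2127 bp in Utx WT and 1620 and 1268 bp in Utx KO, a difference of -0.70 (limma adjusted p = 0.203). Without Utx WT Smarca4 gRNA replicate 2, the library that lacked 2 of its elements, that difference was -1.17 (limma adjusted p = 0.0303). That fit leaves 1 library in the group, assumed to vary like the other groups, and omits the library nearer to Utx KO. Among genes whose groups did not overlap, Rpl21 (0.43) and Rps26 (0.30) had the highest differences in Utx KO with the empty vector, and neither passed.

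Ranks in this paragraph are again among genes whose groups did not overlap. Under the Smarca4 gRNA, Rpl8 had 822 and 809 bp in Utx WT and 1023 and 1043 bp in Utx KO (0.52, limma adjusted p = 0.116), and Rps14 had the second lowest difference (-0.36). With the Smarca4 gRNA in Utx WT, Rpl8 (-0.44) and Rpl27 (-0.41) had the lowest differences and Rpl4 (0.32) and Rps6 (0.31) the highest. Rpl27 had 1128 and 1219 bp with the empty vector and 777 and 809 bp with the gRNA (limma adjusted p = 0.338). In Utx KO, Rpl37a (-0.24) was among the lowest differences, and Rpl23a (0.35) was the highest after Rpl12.

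With the Chd4 gRNA, Rpl31, a Diamond-Blackfan anaemia gene, had 1898 and 1250 bp with the empty vector and 701 and 669 bp with the gRNA, a log2 difference of -0.51 (SE 0.21, limma adjusted p = 0.419). Rpl38 had 1741 and 1723 bp against 1649 and 434 bp (-0.36, limma adjusted p = 0.654). Without Chd4 gRNA replicate 1, 2 genes passed, Rpl38 at -0.96 (limma adjusted p = 0.00161) and Rpl37a at 0.67 (limma adjusted p = 0.0218), in a fit where the lone gRNA library is assumed to vary like the empty-vector pair. Among genes whose groups did not overlap, Rps25 and Rpl21 lie at the other end after centring (0.36 each). Their listed bases were nevertheless lower with the gRNA: Rps25 had 1082 and 1136 bp against 1067 and 965 bp.

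None of the genes best known from blood disease or from ribosome function was called in any contrast. Rps14, the gene of the 5q deletion in myelodysplasia, had 1213 and 1825 bp of ATAC cover in Utx WT and 1287 and 1395 bp in Utx KO with the empty vector, and 1196 and 570 bp with the Chd4 gRNA against 1230 and 1234 bp. Rps19, the gene most often mutated in Diamond-Blackfan anaemia, had 1819 and 1997 bp in Utx WT and 1663 and 1602 bp in Utx KO, a log2 difference of -0.02 after centring. Its PU.1 cover was 2610, 2399 and 2810 bp in Utx WT and 3209, 3210 and 2210 bp in Utx KO, so the groups overlapped. Rpl5 and Rpl11, which bind Mdm2 with 5S RNA, had 916 and 1100 bp against 1049 and 1057 bp, and 729 and 744 bp against 826 and 746 bp, with log2 differences of 0.23 and 0.25 (limma adjusted p = 0.237 and 0.195). Rps6, the target of S6 kinase, had 1224 and 1562 bp against 1313 and 1192 bp. Rpl3, near the peptidyl transferase centre, had 1193 and 1848 bp against 1408 and 1062 bp. Rplp0 of the P stalk had 856 and 872 bp against 916 and 895 bp, and Rpsa, of the small subunit, 861 and 1060 bp against 801 and 843 bp.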

How the data were processed

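The members and the gene lists were chosen with earlier results of these data known. The authors deposited 1 peak list per library. The submitters' processing notes name the build mm10 and Bowtie, Bowtie2, SICER and MACS2, without versions or roles. The deposited ChIP lists hold 1 whole-number score per peak, used only for ranks within a list, and the deposited ATAC lists hold intervals without a value. Genes, spans and starts came from RefSeq (GRCm38.p6), with 1000 bp added on each side of a span. For each gene, the bases covered by peaks were taken as log2(bases + 200), centred per library on the median over genes covered in every library, and compared with limma 3.58.1 (R 4.3.3, two-sided, Benjamini-Hochberg over all genes covered in at least 2 libraries). H3K4me1, PU.1, ATAC set A and ATAC set B were fitted separately. Named genes were those with a lost or gained region, those called, those with the 2 highest and 2 lowest differences among groups that do not overlap, the 3 top-ranked and the unmarked genes of each assay, and a fixed list of well-known genes and paralogues. Scripts were tested on simulated data. The 2 Input libraries were not analysed here. Alternatives were another pseudocount, no centring, no flank, the upper 50% of each list, 50% of a region covered, the replicate number as a block and each library left out. Results for some genes that the rule would name are not reported here.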

Additional observations from a re-analysis of the deposited data

How the results depend on the processing

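In the replicate block, which compared same-numbered libraries and took the mean over pairs, the regions lost and gained were 2 and 4.5 (H3K4me1), 3 and 6 (PU.1), 10 and 2.5 for the Smarca4 gRNA in Utx WT, 7.5 and 1.5 for it in Utx KO, and 9.5 and 1 for the Chd4 gRNA, and 2.5 were gained in Utx KO ATAC. The block in limma called 0 genes in each contrast it was fitted for. Same-numbered libraries deviated together by a correlation of at most 0.0690, except 0.183 in set A. In ATAC, the labels give an empty-vector and a gRNA library the same genotype and number, without saying whether they share cells. The main fits did not treat these as pairs. In set B the block also joined Utx WT and Utx KO libraries of the same number, so it does not test the labelled pairing. With the upper 50% of each list there were 2 losses of H3K4me1, 4 losses and 0 gains in the ATAC comparison of Utx KO with WT, 1 loss in each gRNA comparison and 0 gains of PU.1. With 50% of a region covered, H3K4me1 had 1 loss and 4 gains, PU.1 0 gains and the Chd4 gRNA 7 losses. A call needs every library of both groups, so leaving out 1 library or comparing single pairs can only keep or raise a region count. Leaving out 1 library gave 0 to 1 losses and 0 to 6 gains of H3K4me1 (6 without Utx WT replicate 2), 0 to 1 losses and 3 to 3 gains of PU.1 (1 loss without Utx KO replicate 3), 9 to 11 losses and 1 to 2 gains in ATAC of Utx KO, 6 to 8 and 0 to 2 for the Smarca4 gRNA in Utx WT, 4 to 8 and 0 to 3 for it in Utx KO, and 5 to 10 and 0 to 2 for the Chd4 gRNA. In limma, 73 alternatives called 0 genes and 5 did not. These were 1 gene without centring in Utx KO ATAC (Rpl27, -0.46, limma adjusted p = 0.0489), 1 with a pseudocount of 1000 under the Smarca4 gRNA, and, with 1 library left out, 0 to 2 for the Chd4 gRNA and 0 to 1 for Utx KO against WT under the Smarca4 gRNA. The other leave-one-out fits called 0 to 0. The second of the latter calls was Rpl27 without Utx KO Smarca4 gRNA replicate 1 (0.56, limma adjusted p = 0.0304), again with 1 library left in the group. Alternatives for the starts were chosen after seeing the data: 4 genes had an H3K4me1-covered start in every library with 200 bases on each side, and 2 to 6 with 1 library left out, while ATAC gave 49 to 53 and PU.1 50 to 52 genes. The causes were not tested. With 2 or 3 libraries a group and no read counts, a missing peak cannot be told from one just under the caller's threshold.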

Other observations

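Where an ATAC region at a ribosomal protein gene was lost in Utx KO, PU.1 islands were in some cases seen in the Utx KO libraries only. Of the 8 lost regions, 3 held PU.1 bases in all 3 Utx KO libraries and in no Utx WT library. They included the region at Rpl12 (295, 295 and 666 bp) and the 948 bp element of Rps15a (199, 599 and 599 bp). No lost region had the reverse pattern, 2 held PU.1 bases in all 6 libraries (1 of them at Rpl8), 1 in none, and the others, at Rpl38 and at the 419 bp element of Rps15a, in some. Over all gene-near ATAC regions lost in Utx KO, 1.06% of 4243 had PU.1 in all Utx KO and no Utx WT library and 0.943% the reverse, against 0.877% and 0.548% of all 49601 regions. Seen from PU.1, 1.36% of the 3012 gene-near regions gained in Utx KO overlapped an ATAC region lost there, against 2.67% of all 106197 PU.1 regions. The pattern was noticed after the values were seen, the ATAC and ChIP libraries came from different cells, and it was not tested.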
